A study of Mus musculus with 18 samples.

Results

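The 10 genes described here encode SR splicing factors: *Srsf1*, *Srsf2*, *Srsf3*, *Srsf4*, *Srsf5*, *Srsf6*, *Srsf7*, *Srsf9*, *Srsf10* and *Srsf11*. They were chosen by name, as a list of family members and not by a threshold on their values, and all 10 were found among the 22524 genes counted in liver. Liver transcripts were counted in 18 female C57BL/6 mice aged 15 months, with 1 RNA-Seq library each. Of these, 10 carried 1 mutant *Rps2*-A226Y allele (A226Y) and 8 were wild type at *Rps2* but carried the same Cre transgene (WT). The A226Y substitution in the small-subunit ribosomal protein RPS2 lowers the accuracy of translation, and the comparison asks which liver transcripts differ when translation is error-prone. Cre was driven by the ubiquitous CMV promoter in both genotypes. The stop cassette in the targeted *Rps2* allele was excised in only some cells of the A226Y mice, so these animals were mosaics in which the other cells carried a single active copy of *Rps2*. The targeted allele came from 129/Sv embryonic stem cells.

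SR proteins carry RNA recognition motifs and a tail rich in arginine and serine. They bind enhancer sequences in exons and help the U1 snRNP and U2AF to recognise the neighbouring splice sites. Kinases of the SRPK and CLK families phosphorylate the tail, which controls import into the nucleus and release from nuclear speckles. Many SR genes limit their own expression by splicing in a poison exon, whose premature stop codon directs the transcript to nonsense-mediated decay (NMD). In the liver, loss of *Srsf3* from hepatocytes is known to disturb their maturation and metabolism.

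None of the 10 SR genes differed between A226Y and WT liver at an adjusted p-value below 0.05 (edgeR's quasi-likelihood test, adjusted over all 13353 tested genes). Over all tested genes, 1910 passed this threshold (14.3%), of which 971 were higher in A226Y (7.27% of tested genes) and 939 lower (7.03%). The called share was 1.86% with covariates estimated from the data (surrogate variables) and 9.42% without WT mouse 14. The log2 fold change of the SR genes, given throughout as A226Y minus WT, was positive for 6 genes and negative for 4. It ranged from −0.16 for *Srsf4* to 0.16 for *Srsf6*, with a median of 0.086, beside −0.0044 over all tested genes. The balance of signs depended on the fit, since with surrogate variables *Srsf1* (−0.0447), *Srsf2* (−0.081) and *Srsf11* (−0.0383) turned negative. For every SR gene, the 95% interval of the difference lay between 0.795-fold and 1.29-fold. These bounds hold for the fit described here, and a p that missed the threshold does not show that the genotypes were alike.

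The counts were made per gene, so transcripts that encode the protein and transcripts bound for NMD were added together. The GENCODE annotation lists NMD transcripts for 9 of the 10 genes, *Srsf10* being the exception. In 5 of them, an exon found in an NMD transcript and overlapping no coding exon holds the stop codon. These exons are shown because a switch between the productive and the unproductive transcript would not appear as such in the totals below. Each sequence runs from the first base of the exon to the end of the stop codon, which is in capitals, on the strand of the gene, with positions in GRCm38.
Srsf3, exon 4 of 7, 456 bases, chr17:29039454-29039909, plus strand: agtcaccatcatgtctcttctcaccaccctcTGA
Srsf7, exon 4 of 9, 460 bases, chr17:80204622-80205081, minus strand: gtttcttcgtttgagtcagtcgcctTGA
Srsf11, exon 4 of 9, 109 bases, chr3:158024123-158024231, minus strand: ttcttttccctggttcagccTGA
Srsf9, exon 2 of 6, 358 bases, chr5:115328347-115328704, plus strand: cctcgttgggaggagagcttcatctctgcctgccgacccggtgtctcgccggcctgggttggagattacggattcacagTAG
Srsf4, exon 2 of 6, 207 bases, chr4:131884276-131884482, plus strand: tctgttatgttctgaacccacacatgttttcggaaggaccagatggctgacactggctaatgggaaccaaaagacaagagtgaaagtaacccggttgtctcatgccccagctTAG
In *Srsf3*, *Srsf7* and *Srsf11* the reading frame closes 34, 28 and 23 bases into the exon, and in *Srsf9* and *Srsf4* after 82 and 115 bases. Inclusion of these exons was not measured, since the files hold no counts per exon.

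The libraries held between 23850565 and 62126131 counts in the A226Y mice and between 25869192 and 34918732 in the WT mice. The lowest count of any SR gene in any mouse was 424 (*Srsf7*). The spreads given below hold both counting error and the differences between mice, which were not separated. *Rps2* itself, summed over both alleles, reached 114.1 ± 13.03 CPM in the 8 WT mice (mean ± SD, CPM being counts relative to the TMM-scaled library size) but 68.6 ± 13.3 CPM in the 10 A226Y mice, with no overlap between the genotypes (log2 fold change −0.73, adjusted p = 0.000772, edgeR). Counts of the A226Y libraries leaned toward longer transcripts (median Spearman correlation of a library's deviation with transcript length 0.094, against −0.109 in WT) and toward lower GC content (−0.131 against 0.069). A226Y mouse 29 and WT mouse 33 stood apart from the other mice on the second principal component. The 10 hepatocyte markers summed to at least 86295 CPM (here by library size) in every mouse, and 2 of them were called higher and 2 lower in A226Y (40% of the list, beside 14.3% of all tested genes). Of 8 Kupffer cell and macrophage markers 1 was called, lower in A226Y, and 7 of the 8 had a negative log2 fold change (median −0.43). Their summed level was 271 to 1151 CPM in A226Y (median 382) and 411 to 752 CPM in WT (median 604), with 7 A226Y mice outside the WT range. Of 8 stellate cell and fibroblast markers 3 were called (37.5%), all lower, while their summed level was 319.9 to 383 CPM in A226Y (mean 354) and 278 to 379 CPM in WT (mean 325). No gene of the lymphocyte (10 tested), neutrophil (3), sinusoidal endothelial (8), cholangiocyte (6) or proliferation (8) lists was called. The log2 fold change was negative for all 10 lymphocyte genes (median −0.39) and all 8 proliferation genes (median −0.28), and positive for all 3 neutrophil genes (median 0.71). Of 16 clock genes 1 was called higher and 1 lower, and of 9 temperature and heat shock genes 1 was called higher. In bulk liver, fewer cells of a type and less RNA per cell cannot be told apart, and the part of these differences between libraries in the SR values was not tested beyond the offsets given below.

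All 10 SR genes were well expressed in liver. Their mean level over the 18 mice was 19.6 CPM (*Srsf10*) to 126 CPM (*Srsf2*), against a median of 14.6 CPM over all tested genes. To compare genes with each other, levels were expressed per exonic length as TPM, a scaling in which the length-corrected values of a library add up to a fixed total, over all 18 mice. *Srsf5*, first known as a gene induced in regenerating liver, had the highest level per length with 155 ± 25.0 TPM (SD, n = 18). *Srsf2* followed with 136 ± 16.7 TPM and was below *Srsf5* in 14 of the 18 mice. A wide gap separated these genes from *Srsf6* (57.8 ± 7.31 TPM) and *Srsf4* (57.7 ± 6.55 TPM), whose order was even, with *Srsf6* the higher in 9 of 18 mice. *Srsf9* came next with 50.8 ± 3.93 TPM and was below *Srsf4* in 13 mice. *Srsf11* (38.7 ± 4.16 TPM) and *Srsf1* (37.9 ± 6.79 TPM) did not differ beyond their spread, the first being higher in 11 mice. The order of the last genes held in each of the 18 mice: *Srsf3* at 24.1 ± 4.33 TPM, *Srsf7* at 17.6 ± 2.35 TPM and *Srsf10* at 7.27 ± 0.596 TPM. These levels depend on the annotated exonic length of each gene, which for *Srsf1* and *Srsf10* (5558 and 5841 bases) is long relative to the other 8 genes.

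**Figure D1:**
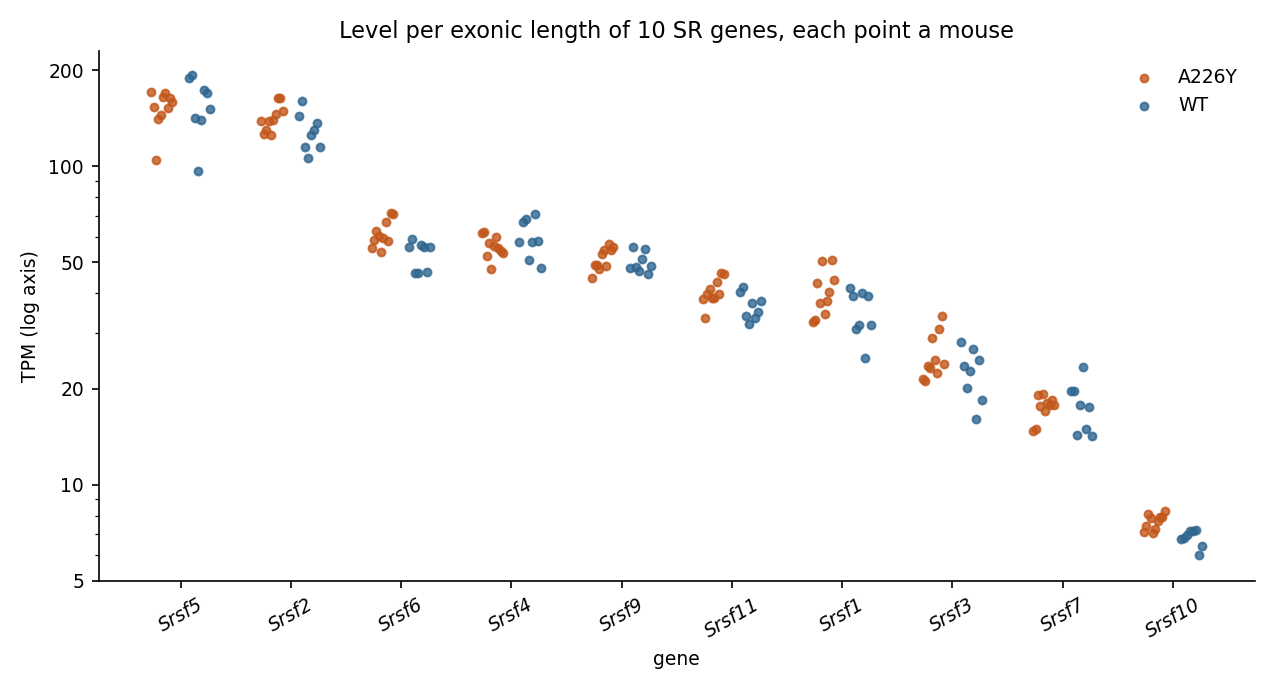
Level per exonic length of each SR gene (TPM, log axis), with a point per mouse and the genes ordered by their mean over 18 mice. *Srsf5* and *Srsf2* stand above the rest in all 18 mice, and *Srsf10* is the lowest in all 18.

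*Srsf1*, the prototype of the family, ranged from 80.0 to 129 CPM in A226Y (median 98.7) and from 66.3 to 105 CPM in WT (median 94.9). The A226Y mice spread over the WT range and beyond it, with 4 of the 10 above every WT mouse and 1 WT mouse below every A226Y mouse. The log2 fold change was 0.16 with a standard error of 0.10 (adjusted p = 0.327, edgeR). *Srsf1*, *Srsf3* and *Srsf5* varied most between mice, with coefficients of variation of 16.3%, 16.2% and 15.8%. *Srsf9*, the close relative of *Srsf1* with a short RS tail, was the most alike in both genotypes by TMM-scaled CPM. It was at 28.96 ± 2.57 CPM in A226Y (24.6 to 33.1) and 29.4 ± 2.32 CPM in WT (26.5 to 32.7). The ranges overlapped almost fully, and the log2 fold change was −0.021 (95% interval −0.15 to 0.10, adjusted p = 0.852, edgeR). By mean TPM, *Srsf7* was closer to 0 (log2 ratio −0.020) than *Srsf9* (0.040).

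*Srsf3*, the smallest SR protein, and *Srsf7*, which carries a zinc knuckle, both also act in the choice of polyadenylation site and in mRNA export. *Srsf3* ranged from 25.0 to 38.7 CPM in A226Y (median 28.7) and from 20.2 to 33.5 CPM in WT (median 28.6). Its medians were thus alike, and 3 A226Y mice (15, 23 and 29) lay above every WT mouse (log2 fold change 0.12, adjusted p = 0.470, edgeR). *Srsf7* ranged from 16.96 to 23.2 CPM in A226Y (median 20.6) and from 18.004 to 27.2 CPM in WT (median 21.4). It was above every A226Y mouse in 3 WT mice and below every WT mouse in 2 A226Y mice, and its log2 fold change was −0.074 (adjusted p = 0.568, edgeR). Both genes lie on chromosome 17, as does *Rps2*, with *Srsf3* 4.31 Mb and *Srsf7* 55.48 Mb from it. Within 5 Mb of *Rps2*, 32 of 164 tested genes were called (19.5%, beside 14.3% of all tested genes).

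*Srsf2* encodes the nuclear speckle protein also known as SC35. Its level was 116 to 153 CPM in A226Y (median 126) and 101 to 150 CPM in WT (median 121). The lowest 3 mice were WT, and the highest was A226Y mouse 23. The log2 fold change was 0.080 with a standard error of 0.073 (adjusted p = 0.491, edgeR). *Srsf2* lies on the minus strand of chromosome 11 (116849901 to 116853094 in GRCm38), and its whole length of 3194 bases is covered on the other strand by *Mettl23*, which is counted in the same files, and 655 bases by *Mfsd11*. Whether strand was used in counting is not given in the sources used here. If it was not, reads of these genes cannot be told apart where exons overlap, and the level of *Srsf2* is uncertain to that degree. *Mettl23* was at 34.6 ± 6.19 CPM in A226Y and 30.7 ± 2.46 CPM in WT (log2 fold change 0.17, adjusted p = 0.199, edgeR), and *Mfsd11* at 31.7 ± 3.83 and 32.9 ± 4.83 CPM (log2 fold change −0.054, adjusted p = 0.714, edgeR).

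*Srsf4*, *Srsf5* and *Srsf6* encode the SR proteins with a pair of RNA recognition motifs and a long RS tail, and none of them was called. *Srsf4* ranged from 49.5 to 64.7 CPM in A226Y (median 58.0) and from 54.5 to 76.6 CPM in WT (median 60.4). A single A226Y mouse lay above the WT mean, 3 A226Y mice lay below every WT mouse, and 3 WT mice (6, 13 and 24) lay above every A226Y mouse. Its log2 fold change of −0.16 (standard error 0.073, 95% interval −0.31 to −0.0041) had an unadjusted p of 0.0446 and an adjusted p of 0.157 in edgeR's quasi-likelihood test. The two-sided exact permutation test over all 43758 divisions of the mice into 10 and 8 gave p = 0.0617.

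*Srsf5* ranged from 81.5 to 126 CPM in A226Y (median 118) and from 76.3 to 150 CPM in WT (median 130). The WT mice were the more widely spread, with 5 of 8 above every A226Y mouse and WT mouse 14 below every one of them. The log2 fold change was −0.11 with a standard error of 0.11 (adjusted p = 0.546, edgeR). *Srsf6* ranged from 91.0 to 118 CPM in A226Y (median 100.4) and from 79.9 to 106 CPM in WT (median 93.8). Of the A226Y mice 8 lay above the WT mean and 4 above every WT mouse, while 3 WT mice lay below every A226Y mouse. Its log2 fold change of 0.16 (standard error 0.069, 95% interval 0.022 to 0.31) had the lowest p of the 10 genes, 0.0263 before and 0.111 after adjustment in edgeR. The exact permutation test gave p = 0.0242, not adjusted for the other genes. The call of *Srsf6* depended on the scaling, since with library size alone its log2 fold change was 0.21 with an adjusted p of 0.0473 (edgeR).

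*Srsf10* encodes SRp38, which acts as a repressor of splicing when dephosphorylated in mitosis or after heat shock. In CPM it varied least between mice, with a coefficient of variation of 7.23% (8.20% in TPM, where *Srsf9* had 7.73%). Its level was 18.4 to 22.2 CPM in A226Y (median 20.1) and 16.4 to 20.2 CPM in WT (median 18.9). Of the A226Y mice 9 lay above the WT mean and 5 above every WT mouse, and 2 WT mice lay below every A226Y mouse. In TPM, 8 A226Y mice lay above every WT mouse, but the median of all tested genes was then also higher in A226Y (log2 ratio 0.056). The log2 fold change was 0.11 (standard error 0.051, 95% interval 0.0019 to 0.21), with an unadjusted p of 0.0464 and an adjusted p of 0.1603 in edgeR and p = 0.0244 in the exact permutation test. *Srsf11*, whose protein binds the large subunit of U2AF, ranged from 51.1 to 68.8 CPM in A226Y (median 61.6) and from 50.8 to 64.6 CPM in WT (median 55.2). Here 8 A226Y mice lay above the WT mean and 2 above every WT mouse (log2 fold change 0.092, standard error 0.062, adjusted p = 0.335, edgeR).

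**Figure D2:**
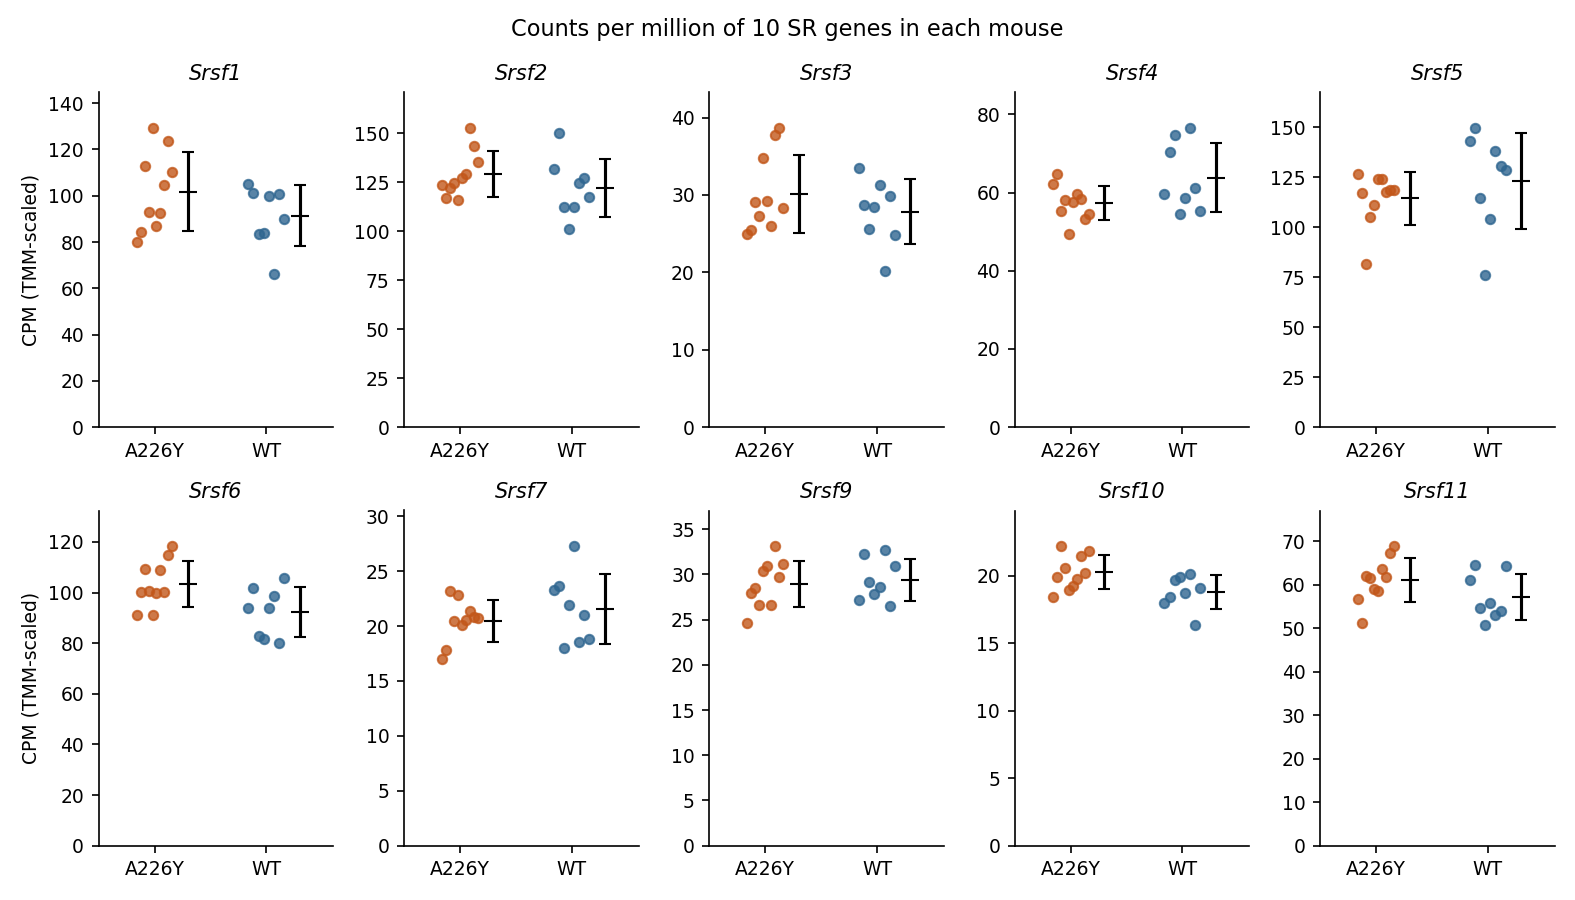
TMM-scaled CPM (vertical axes, from 0) of the 10 SR genes, with a point per mouse and, beside each group, the mean and SD. The genotypes overlap in all 10 genes, and 5 of the 10 A226Y mice lie above every WT mouse for *Srsf10*.

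*Srsf4*, *Srsf6* and *Srsf10* were the only SR genes with an unadjusted p below 0.05 (3 of 10, against 3953 of 13353 tested genes), and their differences were smaller after a correction for GC content. With an offset fitted on GC content in each library, the log2 fold change was −0.083 for *Srsf4*, 0.10 for *Srsf6* and 0.032 for *Srsf10*. With an offset fitted on transcript length, the values were −0.11, 0.17 and 0.11. With the GC offset, *Srsf1* (0.085), *Srsf3* (0.043) and *Srsf11* (0.047) also moved toward 0, and *Srsf9* turned sign (0.044). *Srsf2* (0.090), *Srsf5* (−0.15) and *Srsf7* (−0.15) moved away from 0, and no SR gene was called. With surrogate variables, the values were −0.16 for *Srsf4*, 0.085 for *Srsf6*, 0.12 for *Srsf10*, −0.25 for *Srsf5* and −0.18 for *Srsf7*, again with no call. The transcripts of *Srsf6* and *Srsf10* are poor in GC (42.8% and 41.4%, against a median of 50.2% over tested genes), whereas *Srsf4* is rich in GC (56.8%). Of the other SR genes, *Srsf9* alone exceeded the median GC content, with 56.2%. *Srsf1*, *Srsf3* and *Srsf7* were also poor in GC, with 40.6%, 40.0% and 41.6%. Whether GC content has a part in the differences was not tested. Without A226Y mouse 29 and WT mouse 33, which was tried after the data were seen, no SR gene was called and the log2 fold change of *Srsf6* was 0.18 (adjusted p = 0.0705, edgeR).

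**Figure D3:**
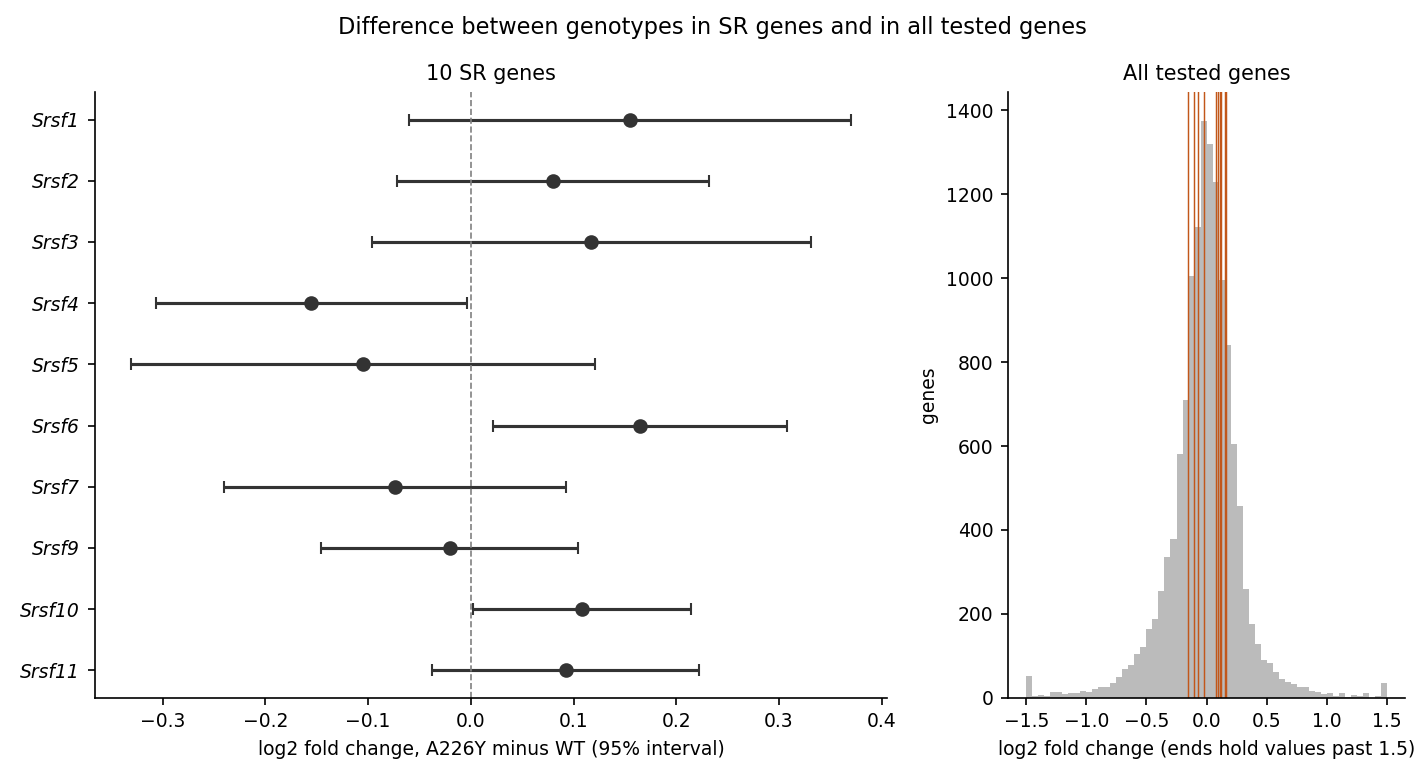
Log2 fold change (A226Y minus WT) of the 10 SR genes with 95% intervals, and the distribution of the same quantity over all tested genes, where vertical lines mark the SR genes. The intervals of *Srsf4*, *Srsf6* and *Srsf10* exclude 0 before adjustment, and all 10 values lie between −0.16 and 0.16.

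Added together, the SR genes made up 667 ± 37.1 CPM in A226Y (625.1 to 731) and 648 ± 56.9 CPM in WT (547 to 741). The WT range enclosed all A226Y totals under this scaling. Scaled by library size alone, the sum was 677 ± 48.1 CPM in A226Y and 637 ± 63.1 CPM in WT, the difference of means grew from 19.4 to 39.3 CPM, and A226Y mouse 29 (776.5 CPM) exceeded the highest WT mouse (734 CPM). Within this sum, *Srsf2* and *Srsf5* were the largest components by counts. *Srsf2* made up 19.3% ± 1.02 in A226Y and 18.8% ± 0.839 in WT. *Srsf4* accounted for 8.64% ± 1.01 in A226Y and 9.90% ± 1.38 in WT, and 4 A226Y mice had a share below that of every WT mouse. *Srsf6* accounted for 15.5% ± 1.06 and 14.3% ± 1.22, and *Srsf5* for 17.2% ± 2.10 and 18.9% ± 2.46. *Srsf10* had shares of 3.04% ± 0.197 and 2.93% ± 0.394. The shares overlapped between genotypes for each of the 10 genes.

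Some of the SR genes varied together from mouse to mouse. For each of the 45 pairs, log2 CPM was correlated over the 18 mice after each genotype's mean had been removed. The median r was 0.170 and 32 pairs were positive, beside a median of −0.002 over all pairs of tested genes. After adjustment over the 45 pairs, 6 were below 0.05 by both Pearson's r and Spearman's rho (permutation within genotype, 100000 resamples). The share of all pairs of tested genes that would pass was not determined, so such pairs cannot be called particular to the SR genes.

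*Srsf1*, *Srsf3* and *Srsf7* rose and fell together. Between *Srsf1* and *Srsf3*, r was 0.823 (rho 0.812, adjusted permutation p = 0.0072 and 0.00472), and it was 0.724 without the 2 mice farthest from the median of *Srsf1*. Between *Srsf1* and *Srsf7*, r was 0.724 (rho 0.783, adjusted permutation p = 0.0142 and 0.00472) and 0.616 without 2 mice. Between *Srsf3* and *Srsf7*, r was 0.666 (rho 0.709, adjusted permutation p = 0.0308 and 0.0165) and 0.683 without 2 mice. The same sign was found in each genotype taken alone: for *Srsf1* and *Srsf3*, r was 0.760 in A226Y and 0.913 in WT. In the data this is visible in A226Y mouse 15, with the highest *Srsf1* of all mice (129 CPM), and in WT mouse 24, with the lowest *Srsf1* and the lowest *Srsf3* (66.3 and 20.2 CPM).

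*Srsf4* ran against this group. With *Srsf1*, r was −0.641 (rho −0.628, adjusted permutation p = 0.0308 and 0.036), −0.916 in A226Y and −0.479 in WT, and −0.487 without 2 mice. With *Srsf3* and *Srsf7*, r was −0.572 and −0.532, and neither passed the adjustment (adjusted permutation p = 0.0784 and 0.192), and r was −0.422 with *Srsf3* and −0.335 with *Srsf7* without 2 mice. The same A226Y mouse 15 had the lowest *Srsf4* of all mice (49.5 CPM), and WT mouse 24 the highest (76.6 CPM).

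Among the other genes, the separate pairs of *Srsf6* with *Srsf11* and of *Srsf2* with *Srsf5* passed by both measures. Between *Srsf6* and *Srsf11*, r was 0.735 (rho 0.748, adjusted permutation p = 0.0178 and 0.0156) and 0.635 without 2 mice. *Srsf2* and *Srsf5* had r = 0.661 (rho 0.668, adjusted permutation p = 0.0473 and 0.036) and 0.687 without 2 mice, but the relation was stronger in WT (r = 0.886) than in A226Y (0.266), a difference that was not tested. *Srsf2* and *Srsf11* had r = 0.632, with an adjusted permutation p of 0.0473 by Pearson's r and 0.062 by Spearman's rho. Removing each library's trend with GC content or transcript length, or leaving out A226Y mouse 29 and WT mouse 33, kept the sign of each of these pairs. For *Srsf1* and *Srsf3*, r was then 0.839, 0.850 and 0.811, and for *Srsf1* and *Srsf4* −0.680, −0.639 and −0.675. Without the mice 29 and 33, r between *Srsf4* and *Srsf7* went from −0.532 to −0.707 and between *Srsf3* and *Srsf4* from −0.572 to −0.682. *Srsf9* and *Srsf10* had no partner that passed the adjustment.

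**Figure D4:**
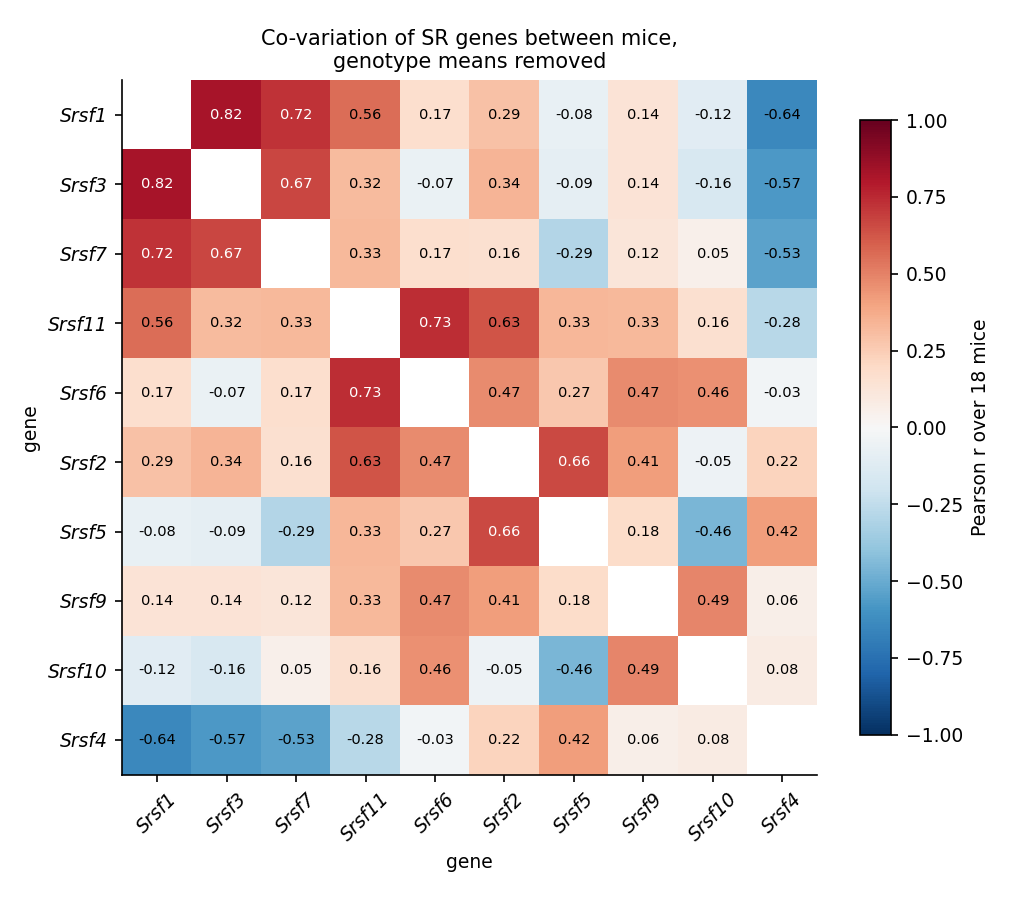
Pearson's r between the log2 CPM of each pair of SR genes over 18 mice, after the mean of each genotype was removed (colour scale from −1 to 1). *Srsf1*, *Srsf3* and *Srsf7* form a positive block (0.67 to 0.82), and *Srsf4* is negative against all of them.

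Outside all gene lists used here, the genes most like the mean of the SR genes from mouse to mouse were *Zfp185* (r = 0.917), *Fam160b2* (0.874), *Ltv1* (0.845), *Gpatch2* (0.829) and *Secisbp2* (0.825). These are the highest values among the tested genes outside the lists. They are given as a description only, over 18 mice, in each of which all genes come from the same library. *Zfp185* was barely expressed, at 0.393 CPM in A226Y and 0.271 CPM in WT.

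Among the kinases that phosphorylate SR proteins and their import receptor, 2 of 9 genes were called, both higher in A226Y. *Prpf4b*, a kinase of the spliceosome, was at 32.02 to 40.3 CPM in A226Y and 24.5 to 36.3 CPM in WT (log2 fold change 0.25, standard error 0.074, adjusted p = 0.0324, edgeR). *Tnpo3*, the import receptor of SR proteins, was at 44.1 to 51.6 CPM in A226Y and 39.6 to 45.6 CPM in WT (log2 fold change 0.13, standard error 0.041, adjusted p = 0.0443, edgeR). Neither call was firm: leaving out 1 mouse at a time, *Prpf4b* was called in 11 of 18 fits and *Tnpo3* in 5, and neither was called with an offset for GC content or transcript length. The SRPK kinases, which act mainly in the cytoplasm, had log2 fold changes of 0.11 (*Srpk1*, adjusted p = 0.206), −0.080 (*Srpk2*, 0.305) and −0.034 (*Srpk3*, 0.957, at 0.270 CPM in both genotypes). The nuclear CLK kinases had 0.046 (*Clk1*, adjusted p = 0.753), −0.12 (*Clk2*, 0.215), 0.029 (*Clk3*, 0.776) and 0.015 (*Clk4*, 0.925), all from edgeR, and none of these 7 kinases was called. With the length offset, *Srpk2* was called lower in A226Y (−0.17, adjusted p = 0.0441, edgeR).

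Of 27 tested genes for other proteins with SR-like tails, 4 were called higher and 1 lower in A226Y, and the median difference of the list was 0.059 on the log2 scale. The higher genes included *Bclaf1* (0.27, adjusted p = 0.0103), *Scaf11* (0.25, 0.00428) and *Zranb2* (0.22, 0.0273), all from edgeR. With the GC offset, *Bclaf1* (adjusted p = 0.0676) and *Zranb2* (0.140) were no longer called, and the list held 2 called genes in place of 5. With surrogate variables the list held 1 called gene, which was lower in A226Y, and its median was −0.0325. *Rnps1*, a component of the exon junction complex, was lower, at 3.02 to 4.36 CPM in A226Y and 5.02 to 6.32 CPM in WT (log2 fold change −0.55, standard error 0.079, adjusted p = 0.000701, edgeR). Its groups did not overlap, and the gene lies 0.29 Mb from *Rps2*. Other genes of the splicing lists also lie within 5 Mb of *Rps2*, and an effect of position was not tested. *Srsf12* had too few counts to be tested. Of 27 hnRNP genes, which often oppose SR proteins at splice sites, 4 were higher and none lower (median 0.079), among them *Ptbp2* (0.51, adjusted p = 0.00767), *Syncrip* (0.28, 0.00253) and *Hnrnph1* (0.27, 0.0253). *Syncrip* was not called with the length offset (0.14, adjusted p = 0.0592, edgeR), nor *Hnrnph1* with the GC offset (adjusted p = 0.0559). With surrogate variables *Ptbp2* was at 0.32 and was not called (adjusted p = 0.161, edgeR). Of 25 genes of the U1 and U2 snRNPs and U2AF, the machinery that SR proteins recruit, *Sf3b1* was higher (0.24, adjusted p = 0.0081) and *Snrpa* lower (−0.25, 0.0484), with a median of 0.022. The median of the list was 0.091 with the length offset and −0.0088 with surrogate variables. *Snrpa* was called under 12 of 32 alternatives only, and among others not with the GC offset (adjusted p = 0.0867, edgeR), the length offset (0.141), library size alone (0.132) or upper-quartile scaling (0.0507). *Sf3b1* was at 0.14 and not called with surrogate variables (adjusted p = 0.184, edgeR), and at 0.17 with the length offset (adjusted p = 0.0498). The called shares were 18.5%, 14.8% and 8% in these lists and 22.2% in the kinase list, beside 14.3% over all tested genes. With the offset for GC content or for transcript length, the U1, U2 and U2AF list held 4 called genes, all higher in A226Y. Over all tested genes, 12.2% were then called with the GC offset and 11.5% with the length offset.

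**Figure D5:**
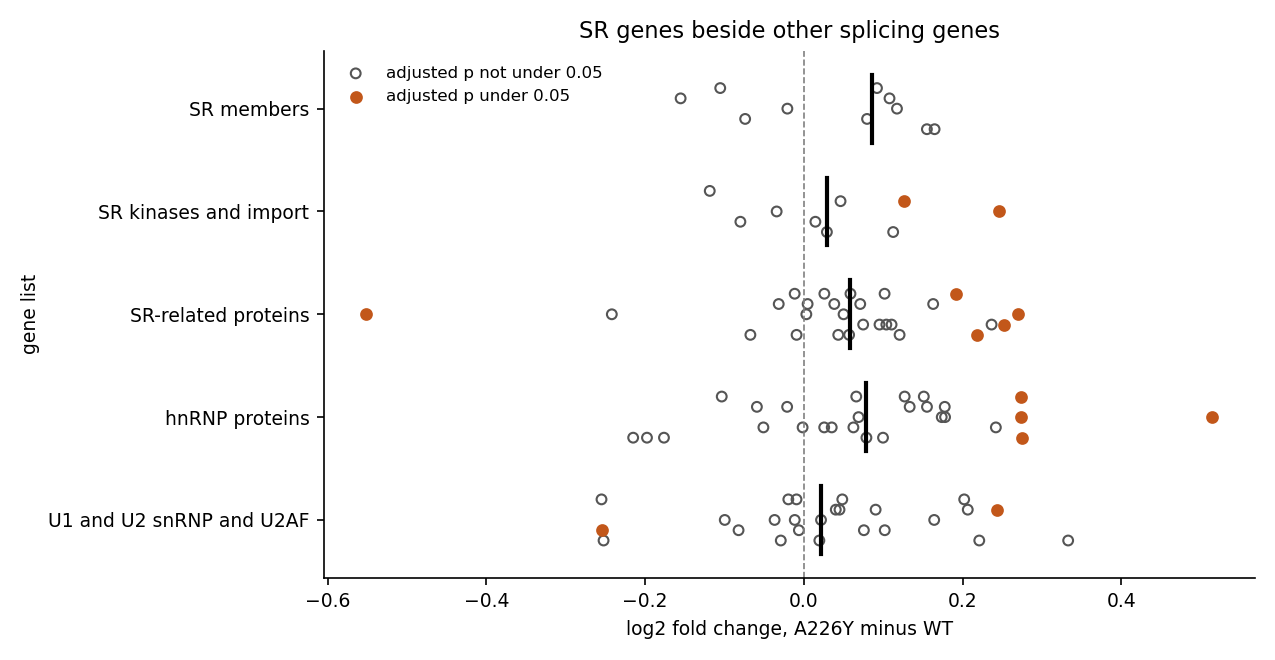
Log2 fold change (horizontal axis, A226Y minus WT) of each tested gene in 5 lists of splicing genes, filled where the adjusted p was under 0.05, with a bar at the list's median. None of the 10 SR genes is filled, and the largest difference in the other lists is that of *Rnps1* (−0.55).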

How the data were processed

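Total RNA from liver was sequenced with 1 library per mouse. For each mouse the authors deposited raw read counts per Ensembl gene as integers, not normalized. The paper's methods name RSEM and the assembly GRCm37, whereas the submitters' processing notes name STAR, featureCounts and GRCm38, and neither states whether strand was used. Symbols, coordinates, lengths and sequences were taken from GENCODE M21 on GRCm38, which held 22214 of the 22524 identifiers, including all 10 SR genes.

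A gene was tested if it reached 10 counts in 50% or more of the A226Y or of the WT mice (13353 genes, all 10 SR genes included). The 2 genotypes were compared with edgeR 4.0.16 in R 4.3.3 (TMM scaling, quasi-likelihood test, no covariate), with Benjamini-Hochberg adjustment over all tested genes, and a gene was called at an adjusted p below 0.05. Standard errors were taken from the F statistic, and the biological coefficient of variation was 0.194. Permutation tests and correlations used log2 CPM with a prior count of 2, and were two-sided. TPM were computed from the counts and exonic lengths. Pearson's and Spearman's p were adjusted separately over the 45 pairs. Correlations were recomputed without the 2 mice farthest from the median of the pair's gene with the lower number. Mouse numbers are those in the sample labels. No number was shared between genotypes and the labels give neither litter nor batch, so the mice were treated as unpaired. Named beside the SR genes were every gene of the kinase list, up to 3 called genes in each direction from the other 3 splicing lists, the 5 genes most alike in pattern, *Rps2*, and 2 genes overlapping *Srsf2*. The SR genes and all lists were chosen with earlier results of these data known.

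Alternatives were RLE, upper-quartile and library-size scaling, 3 other filters, edgeR's likelihood ratio and robust tests, limma-voom 3.58.1, DESeq2 1.42.0, covariates from sva 3.50.0 (4 surrogate variables), offsets for transcript length or GC content (lowess, span 0.3), and leaving out each mouse. The tests were tried on simulated data with known changes. The smallest chi-square per degree of freedom between mice of the same genotype was 20.12, so no 2 libraries were alike within sampling noise.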

Additional observations from a re-analysis of the deposited data

Results flagged for a closer look

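In A226Y mouse 7, *Srsf5* was at 81.5 CPM, the lowest of the A226Y mice. The nearest other A226Y mouse was at 105 CPM, and this gap was 0.525 of the group's whole range, above Dixon's critical value of 0.466 for 10 samples. The value was 1 of 22 groups of CPM and summed levels examined, and chance alone marks about 1 in 20. The same mouse had the highest *Srsf7* and *Srsf10* of the A226Y mice (23.2 and 22.2 CPM). Its *Srsf5* value lay above the lowest WT value (76.3 CPM, WT mouse 14).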

How the results depend on the processing

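Across 32 alternatives, 311 of the 320 log2 fold changes of the SR genes kept their sign and stayed uncalled, 8 turned sign and 1 passed the threshold. With library size alone, 1 SR gene was called (*Srsf6*, 0.21, adjusted p = 0.0473, edgeR). That scaling moved the share of higher genes among all called from 50.8% to 67.9% and the median of all genes to 0.0387. It gave 0.0237 for *Srsf9* (0.0213 as a difference in mean log2 CPM) and 0.0233 for *Srpk3*, and exact permutation p of 0.048 for *Srsf11*, 0.00256 for *Srsf10* and 0.00676 for *Srsf6*, with an adjusted p of 0.0531 for *Srsf10* (edgeR). *Srsf9* also turned with the offsets for length (0.0464) and GC content (0.0437) and ranged from −0.0439 to 0.0033 when 1 mouse was left out, being positive without A226Y mouse 3 or WT mouse 24. With surrogate variables, which left 248 called genes, *Srsf1* (−0.0447), *Srsf2* (−0.081), *Srsf11* (−0.0383), *Clk1* (−0.0815), *Clk4* (−0.0565) and *Srpk3* (0.1999) turned. The value of *Srsf3* was then 0.0096. *Srpk3* turned with the length (0.0179) and GC (0.0136) offsets, and *Clk1* (−0.0256) and *Clk4* (−0.0425) with GC. Leaving out 1 mouse gave −0.1079 to −0.0185 for *Srsf7*, 0.0608 to 0.1587 for *Srsf3*, −0.1808 to −0.0586 for *Srsf5* and 0.0452 to 0.1277 for *Srsf2*. For *Clk4* it gave −0.0165 to 0.0510, and for *Srpk3* −0.1255 to 0.2184 in the 13 of 18 such fits that tested this gene. It gave 1255 (without WT mouse 14) to 2560 called genes (without A226Y mouse 29) and no called SR gene. The cause of these changes was not tested. Without A226Y mouse 29 and WT mouse 33, chosen after seeing the data, 2363 genes were called. DESeq2 and limma-voom called none of the 10 SR genes. Leaving out 1 mouse, the other lists held 0 to 2 (kinases), 3 to 6 (SR-related), 3 to 7 (hnRNP) and 1 to 4 (snRNP) called genes. *Snrpa* was called in 4 of 18 such fits, and *Zranb2* and *Hnrnph1* in 16. The surrogate fit left *Rnps1* and *Hnrnpk*, the latter named after its values were seen. Changes between transcripts of a gene cannot be seen in counts per gene.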
